A study of Mus musculus with 8 samples.

Results

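RNA of 10 membrane transporters that carry glucose, lactate and amino acids was followed in CD8+ T cells, the cytotoxic lineage of T lymphocytes, before and after 5 days of culture. The genes were 2 glucose transporters (*Slc2a1* and *Slc2a3*), 2 monocarboxylate transporters (*Slc16a1* and *Slc16a3*) and 6 genes of amino acid uptake (*Slc7a5*, *Slc3a2*, *Slc1a5*, *Slc38a1*, *Slc38a2* and *Slc7a1*). They were listed by symbol, with no threshold on their values, in a list drawn up with earlier results of these data known. All 10 were found among the 48321 gene symbols of the count tables and were among the 12597 genes with enough reads to be tested. Total RNA from splenic CD8+ T cells of C57BL/6 mice was sequenced in 8 libraries. They formed 4 groups of 2: WT at day 0, KO at day 0, WT at day 5 and KO at day 5. The series names the mice Satb1 F/F; E8I-cre, that is, floxed alleles of *Satb1*, a gene for a DNA-binding organiser of chromatin in T cells, with a Cre recombinase that is active in mature CD8 lineage cells. Whether the WT mice carried the Cre, the age and sex of the mice and the stimulus and medium of the culture are not given in the labels. Nor do the labels say that the 2 libraries of a group came from separate mice, so p-values measure the spread between these libraries, which may be technical.

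A resting T cell takes up little fuel, whereas a T cell that has been activated and divides relies on glucose uptake, on glycolysis with export of lactate, and on imported amino acids for protein synthesis. Glucose enters through facilitative carriers of the SLC2 family, lactate and pyruvate cross with protons through the SLC16 family, and large neutral amino acids enter through a pair of proteins, a light chain encoded by *Slc7a5* and a heavy chain encoded by *Slc3a2* (CD98). Glutamine has several carriers, among them the products of *Slc1a5*, *Slc38a1* and *Slc38a2*, and arginine and lysine enter through the product of *Slc7a1*.

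Gene counts per library ranged from 4170126 to 11117971, and levels below are CPM, the count of a gene scaled to a common library size with TMM factors, unless stated. The targeted gene was examined first. At day 0 *Satb1* was at 97.8 and 91.6 CPM in WT and at 144 and 125 CPM in KO. At day 5 it was at 96.5 and 116 CPM in WT and at 56.5 and 62.3 CPM in KO. The KO libraries thus ran above WT at day 0 (log2 fold change 0.51, adjusted p = 0.125) and below WT at day 5 (-0.84, adjusted p = 0.0162), and the day 0 values go against the label. All comparisons between genotypes are therefore of libraries labelled KO with libraries labelled WT. RNA of *Cd8a*, *Cd8b1*, *Cd3e*, *Cd3d* and *Cd3g* summed to 9521 to 10680 CPM at day 0 and to 6160 to 6871 CPM at day 5, and *Cd4* did not exceed 0.964 CPM. *Cd8a* itself was higher in KO at day 5, at 1216 and 1164 against 832 and 734 CPM (0.60 ± 0.11 on the log2 scale, adjusted p = 0.0155). That call was kept in 16 of 19 alternatives and lost in the 4 libraries of day 5 alone (adjusted p = 0.0593) and without KO replicate 1 or 2 of day 5 (0.129 and 0.126). The other 4 of these genes were not called between genotypes at either day. The B cell genes *Cd79a* and *Ms4a1* stayed at or below 2.26 CPM while *Cd79b* lay between 66.7 and 164 CPM. *Cd79b* fell with culture by 0.83 on the log2 scale in WT (edgeR adjusted p = 0.000286, kept in all 19 alternatives). Its KO mean went from 153 CPM at day 0 to 81.4 CPM at day 5. The 5 myeloid markers summed to 12.4 to 22.2 CPM at day 0 and to 34.8 to 73.6 CPM at day 5, with *Adgre1* at or below 0.226 CPM. They did not move together. *Cd68* rose with culture by 3.53 in WT and 4.09 in KO on the log2 scale and was the highest of them at day 5, while *Csf1r*, the highest at day 0, fell by 1.19 and 1.18 (adjusted p = 0.021 and 0.0156, kept in 15 and 17 of 19 alternatives). *Itgam* held 41 summed reads in WT and 38 in KO at day 0, and 5 and 14 at day 5. It passed the filter on low counts through its day 0 libraries, where it was high. Its log2 fold change was -2.98 in WT (edgeR adjusted p = 0.00191) and -0.79 in KO (adjusted p = 0.242), to be read with that. The part of these markers in the results was not tested.

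Promoter sequences, 250 bases before to 50 after the start of transcription, were at hand for 6 of the 10 genes (RefSeq, GRCm38.p6). Shown are the promoters of the 4 of these genes whose RNA rose with culture in both genotypes, since the transcription factors of growth and hypoxia programs that are known to act on transporter genes bind short motifs of this kind. Capitals mark CACGTG, the E-box bound by MYC and its relatives, and ACGTG, the core of the hypoxia response element, on either strand; each CACGTG contains ACGTG as well. Each sequence is written 5′ to 3′ on the strand of its gene. The RefSeq starts of *Slc2a1*, *Slc16a3* and *Slc3a2* lie inside the gene as GENCODE draws it.
Slc2a1 promoter, chr4:119108495-119108794, plus strand: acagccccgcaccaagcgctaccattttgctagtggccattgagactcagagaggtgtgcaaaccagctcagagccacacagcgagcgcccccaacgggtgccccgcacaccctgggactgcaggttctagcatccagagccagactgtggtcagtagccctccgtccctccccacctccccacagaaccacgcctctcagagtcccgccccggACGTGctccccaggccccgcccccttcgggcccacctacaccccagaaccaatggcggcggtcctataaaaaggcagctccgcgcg
Slc16a1 promoter, chr3:104638414-104638713, plus strand: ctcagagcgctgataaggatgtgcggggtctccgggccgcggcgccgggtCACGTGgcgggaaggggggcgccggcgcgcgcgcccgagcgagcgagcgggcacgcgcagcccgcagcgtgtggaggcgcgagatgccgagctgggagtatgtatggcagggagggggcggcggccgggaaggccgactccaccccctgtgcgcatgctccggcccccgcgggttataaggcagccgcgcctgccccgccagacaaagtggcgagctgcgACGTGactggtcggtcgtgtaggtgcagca
Slc16a3 promoter, chr11:120948817-120949116, plus strand: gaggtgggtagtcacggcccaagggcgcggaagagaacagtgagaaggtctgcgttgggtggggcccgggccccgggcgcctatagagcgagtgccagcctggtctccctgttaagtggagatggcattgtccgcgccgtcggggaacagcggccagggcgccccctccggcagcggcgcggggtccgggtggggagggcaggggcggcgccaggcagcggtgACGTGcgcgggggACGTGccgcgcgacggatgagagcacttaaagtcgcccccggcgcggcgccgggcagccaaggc
Slc3a2 promoter, chr19:8713848-8714147, minus strand: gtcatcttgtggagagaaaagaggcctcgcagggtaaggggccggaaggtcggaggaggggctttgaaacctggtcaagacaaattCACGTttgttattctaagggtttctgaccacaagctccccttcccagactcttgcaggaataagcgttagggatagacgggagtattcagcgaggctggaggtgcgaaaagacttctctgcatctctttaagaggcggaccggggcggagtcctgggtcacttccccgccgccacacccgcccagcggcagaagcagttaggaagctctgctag
ACGTG was found in all of these 4 promoters and in none of the other 3, which belong to *Slc7a1* (2 promoters) and *Slc38a2*, and it occurs in 19.6% of 32851 promoters of this length. CACGTG was found in the *Slc16a1* promoter alone among the 7, at position -200 from the start, and in 7.15% of all promoters. The amino acid response motif TGATGNAAN was in none of the 7 and in 3.95% of all. The split of the promoters follows the RNA changes of these same data and was not tested. *Slc7a1*, without ACGTG, was called higher with culture in KO too. No promoter was at hand for *Slc2a3* and *Slc7a5*, which rose in both genotypes. All hits are matches of letters and were not tested as binding sites.

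More of the transporters changed with culture than between genotypes. In WT cells 7 of the 10 transporters rose between day 0 and day 5 and none fell, at an adjusted p under 0.05 (edgeR quasi-likelihood test, Benjamini-Hochberg over 12597 genes). Among all genes tested 48.3% were called in this comparison (24.7% higher and 23.6% lower). In KO libraries 7 rose and 1 fell, against 50.2% of all genes called (26.2% higher and 24% lower). The median log2 fold change of the 10 genes was 1.14 in WT and 1.40 in KO, and that of all genes tested was -0.04 and -0.05. In 7 of the 10 every library of day 5 lay above every library of day 0, which held for 27.2% of all genes, and in 0 of the 10 did every library of day 5 lie below, against 25.8%. The glucose and lactate carriers and the chains of the large neutral amino acid carrier made up 6 of those 7, *Slc7a1* was the other, and the glutamine carriers were not among them. Because RNA was taken from bulk cultures, fewer cells of a type and less RNA per cell cannot be told apart.

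**Figure D1:**
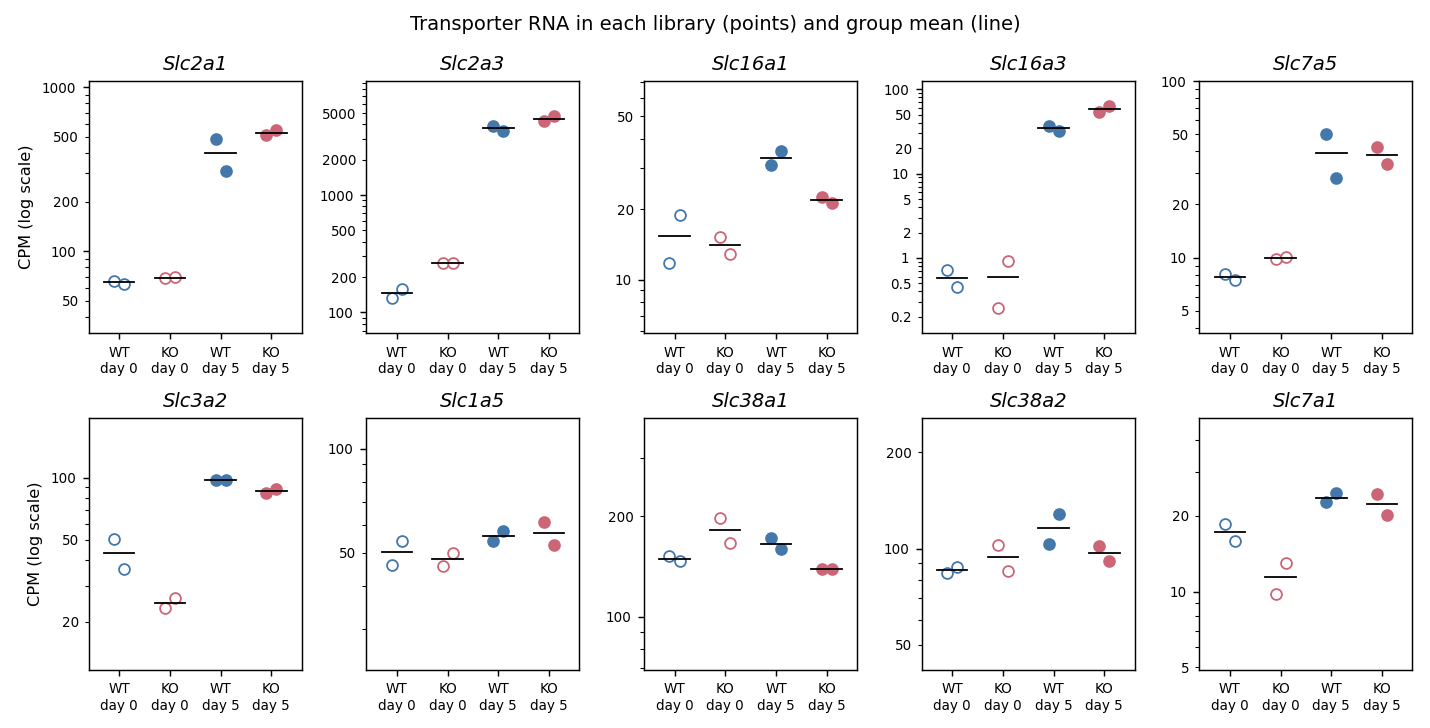
CPM (log scale, a separate range in each panel) of the 10 transporters in each of the 8 libraries; open points are day 0, filled points day 5, blue WT and red labelled KO, and the line is the mean of 2 libraries. *Slc2a3* lies between 134 and 266 CPM at day 0 and between 3548 and 4685 CPM at day 5, while *Slc1a5* stays between 45.9 and 61.4 CPM in all libraries.

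*Slc2a3* (chr6:122727809-122801640, minus strand; GRCm38 here and below) encodes GLUT3, a glucose carrier of high affinity. It was at 134 and 158 CPM in WT and 264 and 266 CPM in KO at day 0, and at 3884 and 3548 CPM in WT and 4252 and 4685 CPM in KO at day 5. The lowest library of day 5 stood far above the highest of day 0. The log2 fold change with culture was 4.67 ± 0.13 (SE) in WT, a 25.5-fold rise (adjusted p = 1.04e-10), and 4.07 ± 0.13 in KO, a 16.8-fold rise (adjusted p = 1.29e-10). Its reads grew from 0.014% to 0.0284% of all gene counts at day 0 to 0.353% to 0.438% at day 5. Per exon kilobase it ranked 2707th (WT) and 1592nd (KO) of 12483 genes at day 0, and 85th and 76th at day 5.

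*Slc2a1* (chr4:119108711-119137983, plus strand) encodes GLUT1, the glucose carrier most widely used by dividing cells. Its day 0 levels were close in all libraries, 65.6 and 63.5 CPM in WT and 68.5 and 69.6 CPM in KO, and rose to 487 and 308 CPM in WT and 512 and 546 CPM in KO at day 5. The log2 fold change was 2.62 ± 0.19 in WT (adjusted p = 2.26e-07) and 2.94 ± 0.19 in KO (adjusted p = 6.61e-08). The WT libraries of day 5 were the most spread of its 4 groups (397 ± 127 CPM, SD, n = 2), and the lower of them still exceeded every day 0 library. Only 105 of its exon bases, 2.99%, are shared with a gene on the other strand.

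The rise of *Slc2a3* exceeded that of *Slc2a1*, and the makeup of the pair differed between the days. Per exon kilobase, *Slc2a1* accounted for 50.4% and 45.4% of the pair in the WT libraries of day 0 and 34.9% and 35.0% in KO. At day 5 it accounted for 20.6% and 15.2% in WT and 19.9% and 19.4% in KO. The log2 ratio of *Slc2a1* to *Slc2a3* was lower by 1.61 at day 5, with all 4 libraries of day 5 below all 4 of day 0 (exact permutation test, two-sided p = 0.0286, the smallest that 4 libraries against 4 can give; adjusted over 5 pairs, 0.0358). The test shuffled the days over all 8 libraries without regard to genotype. Within WT the difference was -2.09 and within KO -1.14. A correction for GC content and exon length, added for the ratios after the data were seen, gave -1.79 with the days still apart (same exact test, p = 0.0286). Its adjusted p was 0.0715, since only 2 of the 5 pairs then reached the smallest p. Summed per exon kilobase, both carriers together rose from between 37.2 and 56.6 to between 578 and 802 CPM.

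*Slc16a3* (chr11:120948480-120960868, plus strand) encodes MCT4, a lactate exporter of cells with high glycolysis, and it went from barely detected to clearly present. The reads were 4 and 2 in WT and 3 and 5 in KO at day 0, and 210 and 134 in WT and 290 and 331 in KO at day 5. In CPM these are at most 0.918 at day 0 and 37.0, 32.3, 53.3 and 62.7 at day 5. Every day 5 library stood far above the day 0 libraries, whose reads are too few for a comparison among them. From the summed reads the rise was 58.5-fold in WT (95% exact interval 26.6 to 160, counting error only) and 124-fold in KO (62.5 to 288). The fitted log2 fold changes were 5.81 ± 0.39 (adjusted p = 1.15e-07) and 6.86 ± 0.36 (adjusted p = 9.39e-09). The size in KO turned on the few reads of day 0, with 5.96 without KO replicate 1 and 7.70 without KO replicate 2 of that day. The gene passed the filter on low counts through its day 5 libraries.

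*Slc16a1* (chr3:104638668-104658462, plus strand) encodes MCT1, which carries lactate and pyruvate in either direction. It was at 11.8 and 19.0 CPM in WT and 15.2 and 12.8 CPM in KO at day 0, and at 30.9 and 35.4 CPM in WT and 22.6 and 21.2 CPM in KO at day 5. The days did not overlap, but in KO the gap was small. In WT the log2 fold change was 1.12 ± 0.24 (adjusted p = 0.00222), and this call was kept under every alternative tried. In KO it was 0.63 ± 0.24 (adjusted p = 0.0421), and 10 of 19 alternatives lost the call. Leaving out any 1 of the 4 KO libraries lost it: the adjusted p was 0.056 and 0.147 without replicate 1 and 2 of day 0, and 0.162 and 0.104 without replicate 1 and 2 of day 5.

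The lactate carriers also differed in proportion between the days. *Slc16a1* made up 95.2%, 98.1%, 98.6% and 94.4% of the pair per exon kilobase in the 4 libraries of day 0. These shares, and the size of the ratio difference below, rest on 4, 2, 3 and 5 reads of *Slc16a3*. That gene passed the filter on low counts through its day 5 libraries, where it was high. At day 5 it made up 50.0% and 56.9% in WT and 33.8% and 28.9% in KO. The log2 ratio of *Slc16a1* to *Slc16a3* was lower by 5.31 at day 5 (-4.55 within WT and -6.07 within KO) with no overlap of the days (exact permutation test, two-sided p = 0.0286; adjusted 0.0358). Corrected for GC content and length it was lower by 5.53, again without overlap (adjusted 0.0715 by the exact test). At day 5 the KO libraries had the smaller share of *Slc16a1*; that difference was not tested as a ratio. Per exon kilobase both carriers together rose from between 2.80 and 4.38 to between 13.9 and 16.6 CPM.

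**Figure D2:**
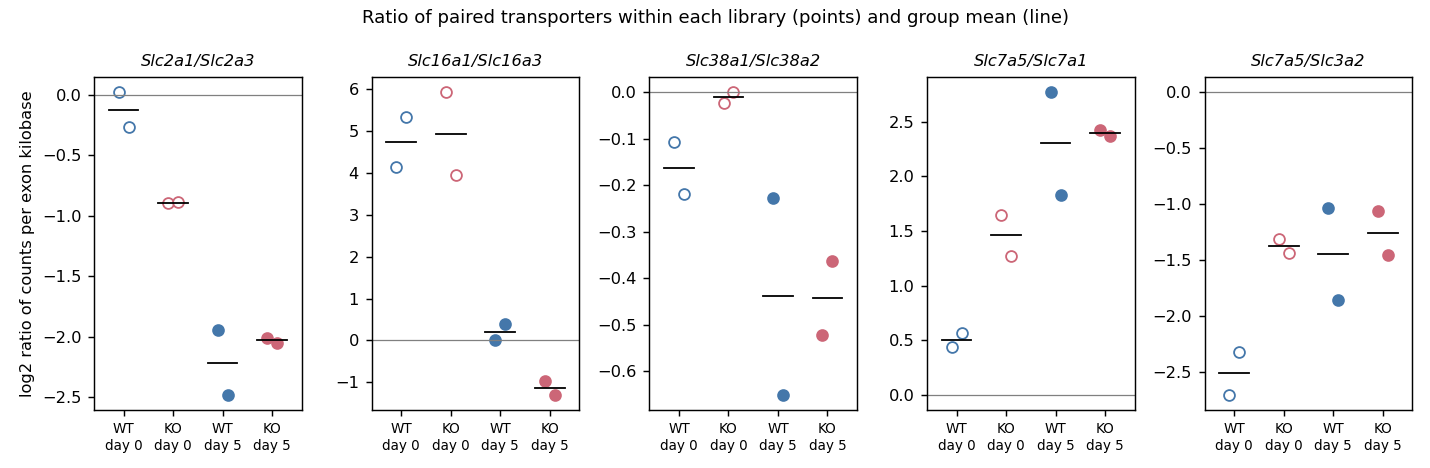
Log2 ratio of the counts per exon kilobase of 5 pairs of transporters in each library; open points are day 0, filled points day 5, blue WT, red labelled KO, and the line is the mean of 2 libraries. The ratios of *Slc2a1* to *Slc2a3* and of *Slc16a1* to *Slc16a3* are lower in every day 5 library, and the days overlap for *Slc7a5* to *Slc3a2*.

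Among the amino acid genes, both chains of the large neutral amino acid carrier rose. *Slc7a5* (chr8:121881150-121907694, minus strand) encodes LAT1, the light chain that moves leucine and other large amino acids. It was at 8.05 and 7.46 CPM in WT and 9.87 and 10.1 CPM in KO at day 0, and at 50.1 and 28.2 CPM in WT and 42.3 and 33.7 CPM in KO at day 5. The groups of day 0 were narrow and low, and those of day 5 wide and well above them. Its log2 fold change was 2.34 ± 0.29 in WT (adjusted p = 2.65e-05) and 1.93 ± 0.27 in KO (adjusted p = 6.9e-05).

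*Slc3a2* (chr19:8706882-8723369, minus strand) encodes CD98, the heavy chain that brings the light chain to the membrane. At day 0 it was at 50.3 and 36.0 CPM in WT and 23.4 and 26.1 CPM in KO. At day 5 the WT libraries held 97.9 and 97.1 CPM and the KO libraries 84.2 and 87.9 CPM. Levels of day 5 were tight and above every library of day 0. Its rise on the log2 scale was 1.17 ± 0.17 in WT (adjusted p = 0.000135) and 1.80 ± 0.18 in KO (adjusted p = 3.66e-06). The log2 ratio of *Slc7a5* to *Slc3a2* was higher by 0.59 at day 5 with overlapping days (exact permutation test, two-sided p = 0.229; adjusted 0.229). Within WT, where the days separated, the difference was 1.07, and within KO, where they overlapped, 0.12.

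*Slc7a1* (chr5:148327410-148399904, minus strand) encodes CAT1, a carrier of arginine and lysine. It was at 18.6 and 15.8 CPM in WT and 9.78 and 13.0 CPM in KO at day 0, and at 22.8 and 24.6 CPM in WT and 24.5 and 20.3 CPM in KO at day 5. The genotypes overlapped at day 5, and at day 0 the KO libraries were the lowest. The gene rose in KO (0.99 ± 0.23, adjusted p = 0.00294), and in WT its change did not pass the test (0.45 ± 0.23, adjusted p = 0.119). In WT a correction for GC content and length gave 0.64 with an adjusted p of 0.0348. The log2 ratio of *Slc7a5* to *Slc7a1* was higher by 1.37 at day 5 (1.80 within WT and 0.94 within KO) with no overlap of the days (exact permutation test, two-sided p = 0.0286; adjusted 0.0358). After the correction for GC content and length the difference was 1.06 and the days overlapped (exact test, p = 0.0571; adjusted 0.0952).

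The 3 glutamine carriers had log2 fold changes between -0.39 and 0.43. *Slc1a5* (chr7:16781340-16798274, plus strand), which encodes ASCT2, an exchanger of small neutral amino acids, was at 46.1 and 54.0 CPM in WT and 45.9 and 49.9 CPM in KO at day 0. At day 5 it was at 54.1 and 57.8 CPM in WT and 61.4 and 52.8 CPM in KO. The groups of day 5 were at most slightly higher. Its log2 fold change was 0.16 ± 0.16 in WT (95% interval -0.19 to 0.52; adjusted p = 0.444) and 0.26 ± 0.16 in KO (-0.09 to 0.61; adjusted p = 0.201).

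*Slc38a1* (chr15:96571418-96642913, minus strand) and *Slc38a2* (chr15:96687392-96699730, minus strand) encode SNAT1 and SNAT2, sodium-coupled carriers of small neutral amino acids. *Slc38a1* was at 152 and 147 CPM in WT and 197 and 166 CPM in KO at day 0, and at 172 and 159 CPM in WT and 139 and 139 CPM in KO at day 5. The WT libraries of day 5 lay above those of day 0 and the KO libraries of day 5 below theirs. The log2 fold change was 0.15 ± 0.13 in WT (adjusted p = 0.375) and -0.39 ± 0.13 in KO (adjusted p = 0.0227). In KO the adjusted p was 0.219 without replicate 1 of day 0, 0.131 and 0.128 without replicate 1 and 2 of day 5, and 0.837 with a log2 fold change of -0.04 after a correction for GC content and length. In WT, where the gene was not called, that correction gave 0.44 (adjusted p = 0.0252).

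*Slc38a2* was at 83.7 and 87.7 CPM in WT and 103 and 85.1 CPM in KO at day 0, and at 103 and 128 CPM in WT and 102 and 91.5 CPM in KO at day 5. The days separated in WT and overlapped in KO. Its log2 change was 0.43 ± 0.16 in WT (adjusted p = 0.0386) and 0.04 ± 0.15 in KO (adjusted p = 0.859). The WT call was lost in 9 of 19 alternatives, and the adjusted p was 0.16 and 0.107 without WT replicate 1 and 2 of day 0, 0.182 without WT replicate 2 of day 5, and 0.0561 and 0.0571 without KO replicate 1 and 2 of day 5. The log2 ratio of *Slc38a1* to *Slc38a2* was lower at day 5 by 0.35, with -0.28 within WT and -0.43 within KO (exact permutation test, two-sided p = 0.0286; adjusted 0.0358). All 4 ratios of day 5 lay below those of day 0. The correction for GC content and length removed this difference, leaving 0.018 over all libraries, 0.13 within WT and -0.096 within KO, with overlapping days (exact test, p = 0.886).

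**Figure D3:**
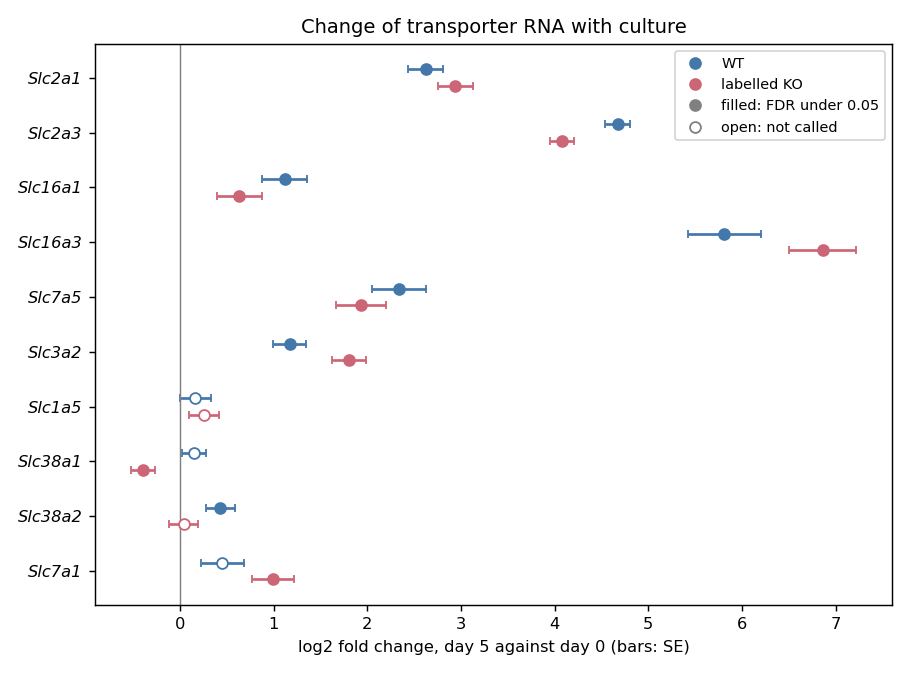
Log2 fold change of each transporter between day 0 and day 5 in WT (blue) and in libraries labelled KO (red), with its standard error as bars; filled points passed an adjusted p of 0.05. *Slc16a3* and *Slc2a3* lie farthest to the right in both genotypes, at 4.07 or more, and *Slc38a1* in KO is the single called fall.

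Compared per exon kilobase, the order of the transporters also changed. Shares of a pair above and the order here depend on the exon lengths taken, the union of the exons in GENCODE. In WT at day 0 *Slc2a3* (20.1 ± 2.39 CPM per kilobase, SD, n = 2) and *Slc2a1* (18.4 ± 0.43) led and did not differ beyond their spread. *Slc3a2* (12.2 ± 2.87) and *Slc1a5* (12.0 ± 1.34) came next with overlapping values, then *Slc38a2* (9.70), *Slc38a1* (8.66), *Slc16a1* (3.48), *Slc7a5* (2.09), *Slc7a1* (1.49) and *Slc16a3* (0.11). In KO at day 0 *Slc2a3* (36.6 ± 0.24) stood clear of *Slc2a1* (19.7 ± 0.20).

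At day 5 in WT *Slc2a3* (513 ± 32.7) stood clear of *Slc2a1* (113 ± 36.1), followed by *Slc3a2* (27.6 ± 0.16). Behind them *Slc1a5* (13.4 ± 0.62), *Slc38a2* (13.1 ± 2.0) and *Slc7a5* (10.6 ± 4.18) did not differ beyond their spread. The lowest was *Slc7a1* (2.05 ± 0.11). In KO at day 5 the first 3 places were the same, with 617 ± 42.2, 151 ± 6.81 and 24.4 ± 0.72 CPM per kilobase, followed by *Slc1a5* (13.7 ± 1.46). *Slc38a2* (10.9 ± 0.84), *Slc16a3* (10.9 ± 1.24) and *Slc7a5* (10.2 ± 1.64) could not be ordered. All 6 amino acid genes together rose from between 42.5 and 47.4 to between 66.8 and 77.8 CPM per kilobase, less than the glucose pair.

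The libraries labelled KO differed from WT at day 0 in 2 of the 10 transporters, where 1.8% of all genes were called. *Slc2a3* was higher, 264 and 266 against 134 and 158 CPM, a 1.82-fold difference (0.86 ± 0.12 on the log2 scale; adjusted p = 0.00244). Both KO libraries lay above both WT libraries; at day 0 the genotypes did not overlap in 6 of the 10 transporters and in 43.4% of all genes. The call was kept in 18 of 19 alternatives and was lost without WT replicate 1 of day 0 (0.75, adjusted p = 0.0759). The other glucose carrier, *Slc2a1*, had a log2 difference of 0.10 (95% interval -0.31 to 0.50; adjusted p = 0.882).

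*Slc3a2* was lower in KO at day 0, 23.4 and 26.1 against 50.3 and 36.0 CPM, a log2 difference of -0.81 ± 0.18 (adjusted p = 0.0407). Neither KO library reached the lower WT library. The call was kept in 5 of 19 alternatives and was lost when any 1 of the 8 libraries was left out, with log2 fold changes from -1.03 to -0.55 and adjusted p from 0.0509 to 0.386. The light chain *Slc7a5* had a log2 difference of 0.36 ± 0.30 (adjusted p = 0.685), and *Slc7a1* one of -0.62 ± 0.23 (adjusted p = 0.248). Of the 10 genes 4 reached an unadjusted p under 0.05 at day 0, as did 13.8% of all genes. The median log2 difference of the 10 was 0.02, and that of all genes tested was 0.00 at 2 decimals.

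At day 5 none of the 10 transporters was called between libraries labelled KO and WT by edgeR or by DESeq2, where 1.63% of all genes were called by edgeR. An unadjusted p under 0.05 was reached by 4 of the 10 and by 14.1% of all genes. *Slc16a3* had the largest difference, 53.3 and 62.7 CPM in KO against 37.0 and 32.3 CPM in WT, a log2 difference of 0.74 ± 0.22 (95% interval 0.26 to 1.22; adjusted p = 0.135). *Slc16a1* differed in the other direction, 22.6 and 21.2 against 30.9 and 35.4 CPM, by -0.59 ± 0.23 (-1.10 to -0.09; adjusted p = 0.264). The libraries of the genotypes did not overlap for these and 5 more of the 10 transporters at day 5, 7 in all, where 45.6% of all genes showed no overlap.

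Neither glucose carrier was called at day 5. *Slc2a1* differed by 0.41 ± 0.17 (adjusted p = 0.302), and without WT replicate 1 of day 5, the higher of the WT libraries, by 0.79 (adjusted p = 0.0148). Without WT replicate 2 of day 5 the difference was 0.12 (adjusted p = 0.763). *Slc2a3* differed by 0.27 ± 0.11 (adjusted p = 0.304). Differences in the 6 amino acid genes were between -0.25 and 0.03, with adjusted p of 0.415 or more. The interval for *Slc7a5* ran from -0.59 to 0.48 and that for *Slc3a2* from -0.55 to 0.18. Differences within these intervals are compatible with the data, and the smallest detectable difference with 2 libraries a group was not measured.

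**Figure D4:**
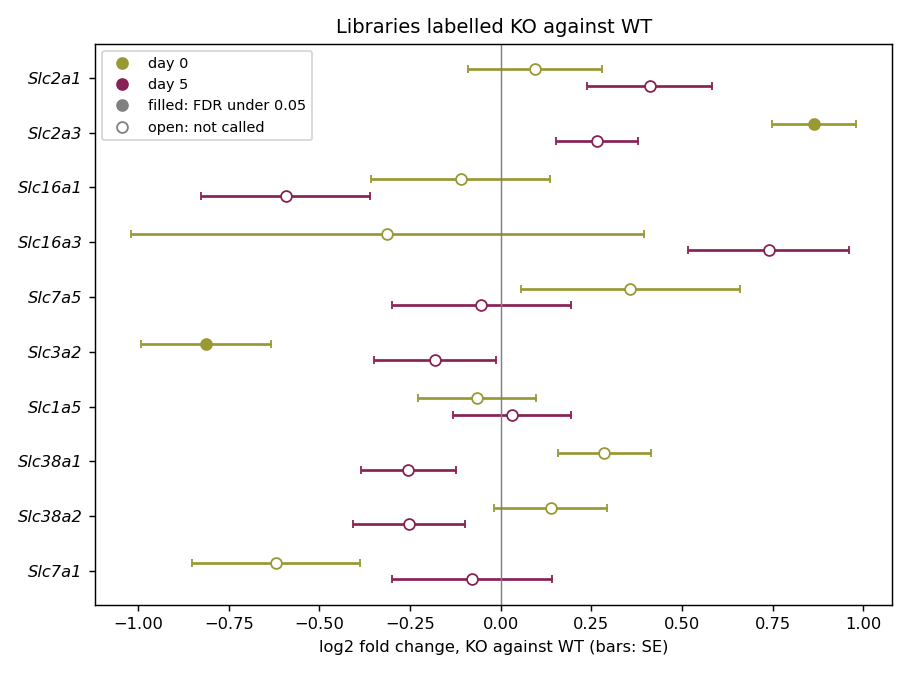
Log2 fold change of each transporter in libraries labelled KO against WT at day 0 (olive) and day 5 (purple), with its standard error as bars; filled points passed an adjusted p of 0.05. At day 0 *Slc2a3* (0.86) and *Slc3a2* (-0.81) are called in opposite directions, and no point of day 5 is filled.

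Whether culture changed a transporter differently in the genotypes was tested as the interaction of genotype and day. No member was called by edgeR or by DESeq2, where 0.159% of all genes were called by edgeR. An unadjusted p under 0.05 was reached by 3 of the 10 and by 12.4% of all genes. The culture change of *Slc2a3* in KO minus that in WT was -0.60 ± 0.16 on the log2 scale (adjusted p = 0.181). *Slc3a2* had a difference of 0.63 ± 0.25 (adjusted p = 0.331) and *Slc38a1* of -0.54 ± 0.18 (adjusted p = 0.267). For *Slc38a1* the changes of the genotypes ran in opposite directions, which this test did not call. Calls made in one genotype alone, those of *Slc38a2* and *Slc7a1* included, are therefore not shown to differ between genotypes.

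Other transporters of the same substrates were read for comparison. Of 69 listed hexose, monocarboxylate and amino acid transporters 28 had enough reads to be tested. With culture 5 rose and 7 fell in WT, and 4 rose and 7 fell in KO, with median log2 fold changes of -0.18 and -0.09. These calls are 42.9% and 39.3% of the 28, against the 48.3% and 50.2% of all genes. They numbered 6 of 28 in WT without WT replicate 1 of day 5, and 6 and 5 of 28 in KO without KO replicate 1 and 2 of day 5. *Slc16a5*, which encodes MCT6 of the SLC16 family, had the largest fall of those named: it was at 114 and 142 CPM in WT and 109 and 115 CPM in KO at day 0, and at 1.41 and 3.86 CPM in WT and 3.68 and 2.46 CPM in KO at day 5. Its log2 fold change was -5.68 ± 0.30 in WT (adjusted p = 1.42e-08) and -5.17 ± 0.29 in KO (adjusted p = 1.79e-08). The WT value was -5.02 without WT replicate 1 and -6.44 without WT replicate 2 of day 5. It thus fell while both lactate carriers of the same family rose.

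*Slc7a3*, a carrier of cationic amino acids like *Slc7a1*, rose from at most 2.75 CPM at day 0 to between 12.8 and 25.2 CPM at day 5 (log2 fold change 4.11 ± 0.82 in WT, adjusted p = 0.00124, and 4.36 ± 0.78 in KO, adjusted p = 0.000517). Its KO libraries of day 0 held 0 and 15 reads, and the KO value was 2.91 without the first of them; without the second no fold is given. In WT it was 4.79 without replicate 1 of day 0. Like *Slc16a3*, it passed the filter on low counts through its day 5 libraries, where it was high, and its adjusted p-values are to be read with that. *Slc16a6* rose from between 26.6 and 40.7 to between 62.9 and 80.2 CPM (0.89 and 1.43), and 22.5% of its exon length is shared with genes on the other strand. *Slc6a19*, a neutral amino acid carrier best known from gut and kidney, fell from between 90.1 and 108 to between 44.4 and 50.6 CPM (-1.13 and -0.98). *Slc50a1*, a sugar carrier, fell by 0.49 and 0.35 on the log2 scale, calls kept in 17 and 11 of 19 alternatives, and *Slc38a10* fell in WT by 0.68, kept in 15. None of the 28 was called between genotypes at either day or in the interaction by edgeR or by DESeq2. An unadjusted p under 0.05 was reached by 4, 1 and 1 of them, against 13.8%, 14.1% and 12.4% of all genes.

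Partners and regulators of the carriers moved in both directions. Of 15 such genes, all tested, 6 rose and 5 fell with culture in each genotype, 73.3% of the list, where 48.3% of all genes were called in WT and 50.2% in KO. *Myc*, a transcription factor of growth that acts on many transporter genes, was at 144 and 163 CPM in WT and 84.6 and 124 CPM in KO at day 0, and at 457 and 623 CPM in WT and 457 and 466 CPM in KO at day 5. Its log2 fold change was 1.82 ± 0.19 in WT and 2.15 ± 0.19 in KO. *Hif1a*, the oxygen-regulated factor of glycolytic genes, rose by 1.76 and 1.45 on the same scale, and *Atf4*, the factor of the amino acid response, by 1.0 and 1.16.

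Among the negative regulators the sestrins did not all move one way. *Txnip*, whose product removes glucose carriers from the surface, fell from between 352 and 436 CPM to between 161 and 255 CPM (-0.98 ± 0.19 in WT, adjusted p = 0.000917, and -1.0 ± 0.19 in KO, adjusted p = 0.000742); 19.4% of its exon length is shared with a gene on the other strand. *Sesn1* and *Sesn3*, of the sestrin family that restrains mTORC1, fell by 1.80 and 1.07 in WT and by 1.60 and 1.47 in KO, while *Sesn2*, at no more than 2.39 CPM at day 0, rose by 2.61 and 2.48. *Mtor* itself, the kinase of that complex, fell by 0.62 in both genotypes, calls kept in 10 (WT) and 14 (KO) of 19 alternatives, and its partner *Rptor* fell in WT by 1.08. *Rptor* was not called in KO, with means of 27.5 CPM at day 0 and 24.1 CPM at day 5.

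The lactate carriers reach the membrane with chaperones. *Bsg*, which encodes basigin, the partner of MCT1 and MCT4, was at 0.944 to 2.04 CPM at day 0 and at 6.81 to 13.3 CPM at day 5 (2.79 ± 0.49 in WT, adjusted p = 0.0005, and 2.31 ± 0.47 in KO, adjusted p = 0.00143). *Emb*, which encodes embigin, a second partner of MCT1, was at 526 to 915 CPM at day 0 and 800 to 1005 CPM at day 5, and it rose in WT by 0.43 ± 0.14 (adjusted p = 0.0241), kept in 15 of 19 alternatives. It was not called in KO, with means of 847 CPM at day 0 and 965 CPM at day 5. Of the remaining genes *Nedd4l* rose in KO by 1.03 and *Mlxip* fell in KO by 0.65. Their WT values ran the same way, 0.51 and -0.41, and were not called (edgeR adjusted p = 0.0563 and 0.11). None of the 15 was called between genotypes at either day or in the interaction by edgeR. At an unadjusted p under 0.05 there were 5, 2 and 1 of them, against 13.8%, 14.1% and 12.4% of all genes. DESeq2 called 1 of them, *Rptor* at day 5 (adjusted p = 0.0188).

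**Figure D5:**
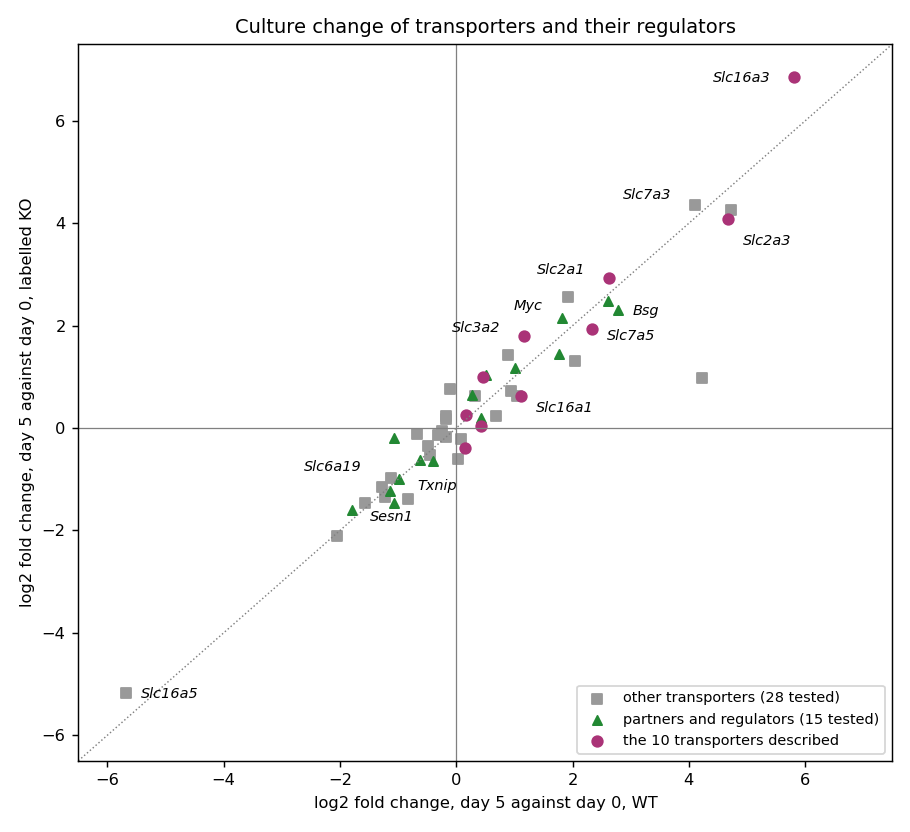
Log2 fold change between day 0 and day 5 in WT (x axis) and in libraries labelled KO (y axis) for the 10 transporters described (purple circles), 28 other transporters (grey squares) and 15 partners and regulators (green triangles); the dotted line marks equal change. *Slc16a3* and *Slc2a3* lie at the upper right and *Slc16a5* (-5.68 and -5.17) at the lower left.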

How the data were processed

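RNA of 8 libraries, 2 for each of 4 groups of genotype and day, was read as gene counts. Per the labels, total RNA was made into libraries with an NEBNext Ultra RNA kit and sequenced with 50-base reads; the submitters' processing notes name HISAT2 2.1.0, HTSeq 0.11.1 and mm10. The authors deposited raw counts per gene symbol, not normalized; 21.2% to 24.5% of the counted records were assigned to genes, the rest standing in HTSeq's special rows, which were left out. The strand setting and annotation release of the counting are not given in the sources used here. Counts from 4170126 to 11117971 per library set the precision.

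Genes with enough reads (filterByExpr, minimum count 10) were tested with edgeR 4.0.16 in R 4.3.3: TMM scaling, a quasi-likelihood fit over all 8 libraries, and Benjamini-Hochberg adjustment over 12597 genes at 0.05. Standard errors and 95% intervals come from that fit. DESeq2 1.42.0 was an alternative. Per-length values used the union exon length of GENCODE M21 (GRCm38). Ratios used log2 of count plus 0.5 per kilobase and an exact permutation test over all 8 libraries, with the genotypes pooled. Replicates differed by more than counting noise (chi-square per degree of freedom 4.69 to 9.4). Scripts were tested on simulated data.

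All 10 members, the tested partners and regulators and *Satb1* could be named; another transporter was named if called and if its higher group reached 10 CPM, up to the 4 largest rises and falls per comparison. The members and lists were chosen with earlier results of these data known. Alternatives changed scaling, filter, libraries, replicate block, GC and length correction, test, depth and single libraries.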

Additional observations from a re-analysis of the deposited data

Results flagged for a closer look

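The culture change of *Satb1* differed between the genotypes by a test of the difference itself: the log2 fold change in libraries labelled KO minus that in WT was -1.34 ± 0.21 (edgeR, adjusted p = 0.0269 by Benjamini-Hochberg), and 10 of 18 alternatives kept the call, with adjusted p from 3.77e-05 to 0.23.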

How the results depend on the processing

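With culture, the rises of *Slc2a1*, *Slc2a3*, *Slc16a3*, *Slc7a5* and *Slc3a2* in both genotypes, of *Slc16a1* in WT and of *Slc7a1* in KO kept their call in all 19 alternatives tried. Of the log2 fold changes of the 10 transporters under the alternatives, 865 kept direction and side of the threshold, 39 lost the call, 5 gained it and 30 turned direction, and the cause was not tested. Library totals in place of TMM shifted the median of all genes by -0.135 (WT) and -0.183 (KO) with culture. Of the 2 transporters called at day 0 between genotypes, 1 remained under library totals, the 4 libraries alone, GC and length correction, the block with that correction, and thinning; 0 to 1 remained when a library was left out, and 0 to 1 were called at day 5. The ratio of *Slc2a1* to *Slc2a3* differed by -2.0918 in WT alone and by -1.1368 in KO alone. The correction for GC content and length, added for the ratios after the data were seen, gave -1.7939 for *Slc2a1* to *Slc2a3*, -5.5327 for *Slc16a1* to *Slc16a3* and 1.0593 for *Slc7a5* to *Slc7a1*, none past an adjusted p of 0.05, and turned *Slc38a1* to *Slc38a2* to 0.0182.

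The labels give replicate numbers but do not say that they pair the libraries. Same-numbered libraries had correlated deviations of 0.118 and 0.228 between days and 0.00438 and -0.0165 between genotypes. With 2 libraries a group these values do not settle whether the numbers pair libraries across days, and no pairing was assumed. With the replicate block 1 transporter was called at day 0 (*Slc3a2*, adjusted p = 0.0512, was lost), 0 at day 5, 7 with culture in WT, 7 in KO (*Slc16a1*, adjusted p = 0.0531, was lost) and 0 in the interaction.

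Apart from the ratio of *Slc38a1* to *Slc38a2*, which had been called, the values that turned direction belonged to uncalled results. For *Slc1a5* they were 0.0084 and 0.0089 at day 0, -0.1888 and -0.1881 at day 5, -0.0079 and -0.0075 in KO culture and -0.1971 and -0.1969 in the interaction under the correction for GC and length with and without the block, and -0.0065 and -0.0611 at day 5 under library totals and thinning. For *Slc38a2* in KO culture they were -0.1461, -0.0043 and -0.0323 under library totals, no filter and thinning. Leaving out single libraries gave these ranges. At day 0 between genotypes *Slc16a1* ran from -0.4262 to 0.2568, *Slc16a3* ran from -1.1237 to 0.5922, *Slc1a5* ran from -0.1775 to 0.0484 and *Slc38a2* ran from -0.0141 to 0.2961. At day 5 between genotypes *Slc7a5* ran from -0.3972 to 0.4395, *Slc1a5* ran from -0.0822 to 0.1341 and *Slc7a1* ran from -0.2216 to 0.0488. With culture in KO *Slc38a2* ran from -0.0928 to 0.1942. In the interaction *Slc2a1* ran from -0.0032 to 0.6909, *Slc7a5* ran from -0.7826 to 0.0783 and *Slc1a5* ran from -0.0225 to 0.2032.

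All genes called at day 0 (227) were 434 with no filter and 38 to 49 without either WT library of day 0. At day 5 (205) they were 418 with no filter, 350 by DESeq2, 120 and 126 with the GC and length correction without and with the block, and as few as 32 without KO replicate 2 of day 5. In the interaction (20) they were 154, 144, 50 and 12 with no filter, DESeq2, thinning and the correction, and 0 to 41 when a library was left out. Other transporters called in KO culture (11) were 7 at the stricter filter, 6 by DESeq2 and 6 and 5 without KO replicate 1 and 2 of day 5; in WT (12) they were 6 without WT replicate 1 of day 5. With thinning 1 was called at day 0. Of the regulators, 2 were called at day 0 and 1 at day 5 with no filter. Depth limited *Slc16a3* at day 0, where it had 4, 2, 3 and 5 reads.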
